A study of Mus musculus with 10 samples.

Results

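The 39 mouse Hox genes were taken as every symbol of the form Hox, a cluster letter from a to d and a paralog number, among 55453 gene symbols with read counts in mouse aorta. They comprise 11 *Hoxa* genes, 10 *Hoxb* genes, 9 *Hoxc* genes and 9 *Hoxd* genes. Membership was set by name alone and by no measured value, although earlier results of these data were known. RNA-seq was performed on the aortae of 10 male C57BL/6 mice, 5 young mice aged 14.5 weeks and 5 old mice aged 92.5 weeks according to the sample labels, with 1 library per mouse. No transgene or drug was named for either group. Both groups ate standard chow and were killed at the same time, and the aortae were perfused with saline and cleared of the surrounding adipose tissue before RNA was extracted. Whether the arch, the thoracic aorta or the abdominal aorta was included was not stated, so that one library may hold RNA of several positions along the vessel. The question addressed here was which Hox genes the adult aorta expressed, and whether their levels differed between young and old mice.

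Hox genes encode homeodomain transcription factors that give cells along the head to tail axis their positional identity. Within each cluster the genes lie in the order in which they are used along the body, with low paralog numbers reaching furthest toward the head and high numbers used toward the tail and in the distal limb and genital tubercle. Genes with the same number in different clusters are paralogs that arose by duplication of an ancestral cluster. Fibroblasts and vascular smooth muscle cells of adult animals keep a pattern of Hox expression that differs between body regions, and the smooth muscle of the aortic arch, which comes in large part from the neural crest, differs in this pattern from that of the descending aorta, which comes from mesoderm.

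On GRCm38 the *Hoxa* genes lie on chromosome 6, on the minus strand. The *Hoxb* genes span chromosome 11 from 96194316 to 96368256, the *Hoxc* genes chromosome 15 from 102921103 to 103036852 and the *Hoxd* genes chromosome 2 from 74668310 to 74765142, all on the plus strand. Of the 39 genes, 22 had a RefSeq promoter window on GRCm38.p6, and 24 such windows were compared with all 32851. The 250 bases before the start held a median of 12.5 CpG dinucleotides in the Hox windows and 6.0 in all windows, and their median GC content was 58.6% and 52.4%. A few letter patterns were searched on both strands in these windows. The TATA box letters TATAAA occurred in 4 of the 24 Hox windows (those of *Hoxa10*, *Hoxb8*, *Hoxd4* and *Hoxd13*) and in 12.4% of all windows. The caudal type letters TTTATNG, which can overlap the TATA letters, occurred in 2 of 24 (*Hoxb8* and *Hoxd4*) and in 9.81% of all windows. The PBX-HOX type letters TGATTNAT occurred in 2 of 24 (*Hoxa2* and *Hoxd11*) and in 2.82% of all windows. A match describes letters and not a binding site.

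The windows of 3 *Hoxa* genes are shown because these genes stand for the contrast described further on, between a gene of the middle of the cluster with a smaller spread between mice (*Hoxa5*) and genes near its tail end whose counts varied widely between mice (*Hoxa10* and *Hoxa11*). Each is the 250 bases before a RefSeq start on the minus strand of GRCm38.p6, printed 5′ to 3′, with CpG dinucleotides in capitals. The window of *Hoxa5* lies at chr6:52204588-52204837 and holds 28 CpG. That of *Hoxa10* lies at chr6:52234940-52235189, before the start of the shorter transcripts inside the annotated gene, and holds 20 CpG and 1 TATAAA match. That of *Hoxa11* lies at chr6:52245811-52246060 and holds 13 CpG. The exons of *Hoxa11* are overlapped in part by those of *Hoxa11os*, an antisense transcript.
*Hoxa5*: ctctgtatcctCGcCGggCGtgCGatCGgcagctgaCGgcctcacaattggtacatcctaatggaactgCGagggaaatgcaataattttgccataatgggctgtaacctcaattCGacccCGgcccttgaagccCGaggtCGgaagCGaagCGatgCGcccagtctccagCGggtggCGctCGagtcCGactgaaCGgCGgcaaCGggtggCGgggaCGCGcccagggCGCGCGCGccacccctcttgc
*Hoxa10*: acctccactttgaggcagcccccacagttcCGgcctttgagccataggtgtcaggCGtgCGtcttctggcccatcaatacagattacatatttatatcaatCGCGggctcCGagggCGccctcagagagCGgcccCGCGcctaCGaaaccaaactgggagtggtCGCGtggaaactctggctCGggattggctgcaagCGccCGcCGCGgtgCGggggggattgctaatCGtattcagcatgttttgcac
*Hoxa11*: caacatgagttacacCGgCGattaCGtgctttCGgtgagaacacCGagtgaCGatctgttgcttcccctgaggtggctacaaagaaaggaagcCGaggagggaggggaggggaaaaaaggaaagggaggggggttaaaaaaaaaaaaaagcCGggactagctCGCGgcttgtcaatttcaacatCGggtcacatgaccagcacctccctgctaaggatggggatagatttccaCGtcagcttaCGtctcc

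Between 19640401 and 22886153 reads were counted on genes per library, of which Hox genes took 0.0223 to 0.0305%. As a check of the tissue label, 8 smooth muscle markers (*Acta2*, *Myh11* and others) were detected and summed to 740029 to 949962 normalized counts per library. Markers of adrenal gland and kidney summed to at most 39.5, with *Umod* and *Slc34a1* at 0. A few libraries stood apart. Young 1 had the highest sum of 8 adipocyte markers, 36755 against 6199.8 to 19260.2 in the other libraries. Young 2 had the highest sum of 8 skeletal muscle markers, 1177 against 191 to 303. In old 2, 11% of counts were mitochondrial, against 4.5 to 6.5% elsewhere, and old 3 had the highest sum of 8 leukocyte markers (13923 against 4939 to 8048). The 8 cardiac muscle markers summed to 2386 to 3248 in young and 3251 to 4273 in old aortae, with young 2 highest among the young. Of 4 tested, edgeR called *Tnnt2* and *Ryr2* higher and *Actc1* lower in old aortae, with 11.5% of all tested genes called. *Myh6*, not tested, had 4.09 to 161 normalized counts in young and 1.09 to 6.52 in old libraries. Endothelial markers summed to 20551 to 35347 in young and 10535 to 24102 in old aortae. In whole tissue, fewer cells of a type and less RNA per cell cannot be told apart.

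The adult aorta expressed Hox genes of all 4 clusters, and expression was centered on the middle paralogs. Of the 39 genes, 27 had enough counts to be tested (10 *Hoxa*, 8 *Hoxb*, 6 *Hoxc* and 3 *Hoxd* genes), 7 had a few counts and 5 had none in any library. To compare genes, levels are given as normalized counts (counts divided by the library's size factor) per kb of exon. On this scale *Hoxa7* was highest, followed by *Hoxb6*, *Hoxa5*, *Hoxb7*, *Hoxb4*, *Hoxb3*, *Hoxb2*, *Hoxa3*, *Hoxc6*, *Hoxb5*, *Hoxb8* and *Hoxc10* by the mean over all libraries. Of these 12, 7 belong to the *Hoxb* cluster and 7 to paralog groups 5 to 8. The *Hoxd* cluster was represented mainly by *Hoxd8* (53.3 ± 12.2 per kb in young and 46.1 ± 8.95 in old, SD, n = 5) and *Hoxd9* (23.3 ± 8.42 and 20.8 ± 7.73). At the tail end, the levels of *Hoxa13*, *Hoxc11*, *Hoxc12*, *Hoxc13*, *Hoxd10* and *Hoxd11* did not exceed 9.57 per kb in any library, while at the head end *Hoxb1* and *Hoxd1* had no counts.

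**Figure D1:**
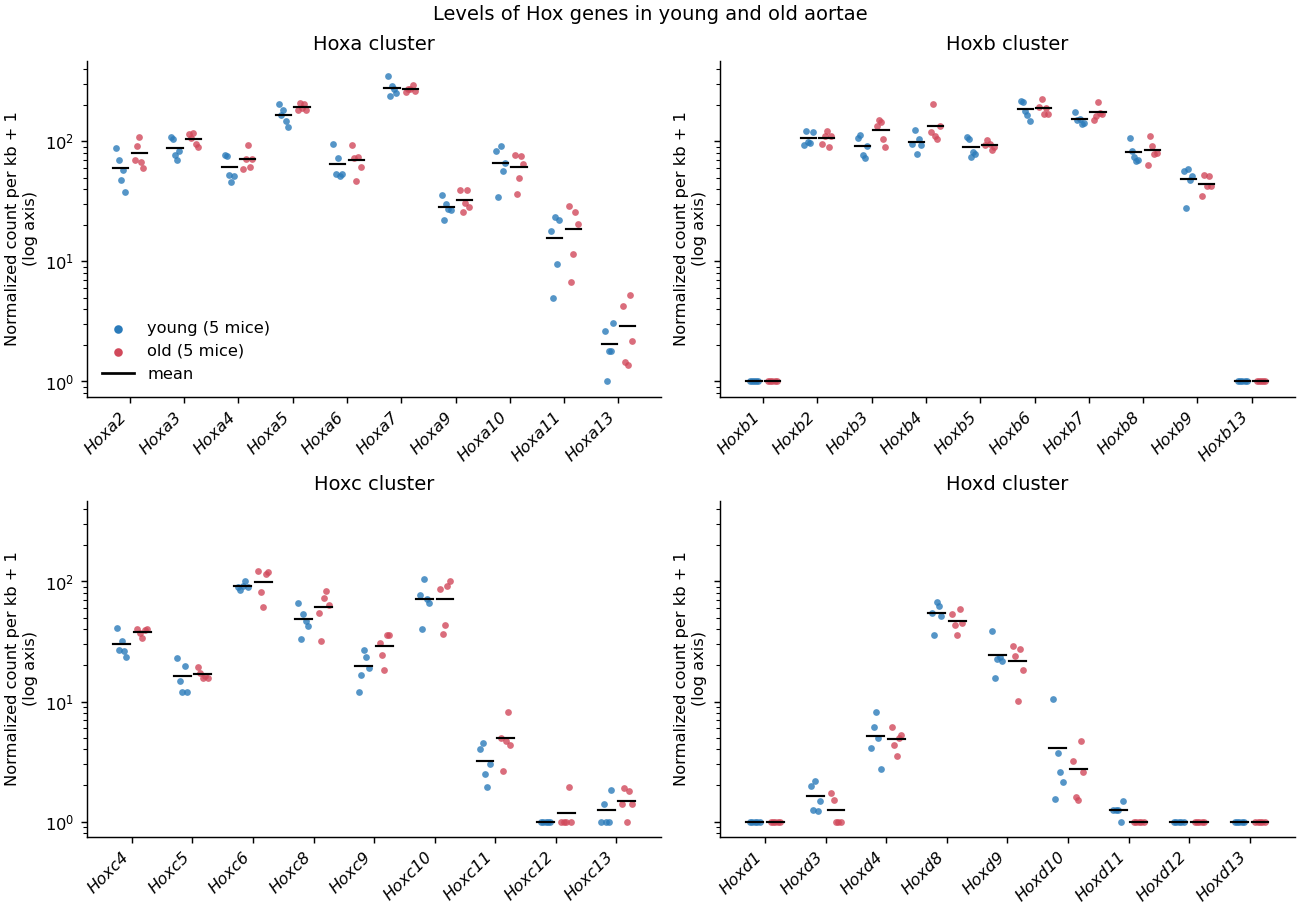
Level of the Hox genes in every library, as normalized count per kb of exon plus 1 on a log axis, with 1 panel per cluster and genes in order of paralog number. Points are single mice (5 young, 5 old) and bars are group means. Genes of paralog groups 5 to 8 of the Hoxa and Hoxb clusters were among the highest, the genes numbered 11 to 13 were low, and young and old points overlapped for each tested gene shown.

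The order of the Hox genes by level was close to the same in young and old aortae. Of the 12 genes with the highest mean level per kb in young and the 12 highest in old mice, 11 were shared, with *Hoxc10* on the young list alone and *Hoxa2* on the old list alone. Across the 27 tested genes, the Spearman correlation of mean levels per kb in young and old mice was 0.98. For single libraries it was 0.842 to 0.964 between a young and an old mouse (25 pairs), 0.866 to 0.965 between 2 young mice (10 pairs) and 0.896 to 0.978 between 2 old mice (10 pairs). These correlations are across genes of shared libraries and exon lengths, and they describe the order only.

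*Hoxa7*, a gene of the trunk region, had 347, 237, 290.2, 272 and 253 normalized counts per kb in young 1 to young 5 and 256, 271, 275, 295 and 261 in old 1 to old 5. Young 1 was highest and young 2 lowest, with all old libraries between them. The log2 fold change of old over young was -0.04 (SE 0.09, 95% interval -0.23 to 0.16). The other abundant *Hoxa* genes were *Hoxa5*, which acts in the lung and the neck and upper chest skeleton, and *Hoxa3*, needed for the thymus, the parathyroid glands and the carotid body.

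*Hoxa5* had 205, 165, 180.1, 146 and 131 per kb in young 1 to young 5 and 182, 209.6, 189.7, 204 and 182 in old 1 to old 5. Young 1 alone among the young mice lay within the old values, and young 5 was lowest. *Hoxa3* had 109, 103, 75.4, 68.7 and 81.8 per kb in the young and 114, 105, 117, 94.1 and 88.3 in the old libraries, in the same order. Old 3 was highest and young 4 lowest, and young 1 and young 2 lay among the old values. The log2 fold changes were 0.23 (SE 0.11) for *Hoxa5* and 0.26 (SE 0.13) for *Hoxa3*, and edgeR's quasi-likelihood test with Benjamini-Hochberg adjustment over all tested genes gave adjusted p = 0.197 and 0.233.

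Among the *Hoxb* genes, *Hoxb6* had 218, 210.1, 178, 165 and 147 per kb in young 1 to young 5 and 191, 224, 168, 188 and 168 in old 1 to old 5. *Hoxb7* had 176, 151, 152, 138 and 141 in young and 151, 163, 214, 172 and 169 in old libraries. Both groups overlapped for both genes, and the log2 fold changes were 0.04 (SE 0.12) and 0.21 (SE 0.11). *Hoxb5*, which acts in the shoulder girdle and in enteric neural crest cells, had 107, 104, 72.6, 80.4 and 76.9 per kb in young and 92.9, 102, 94.7, 83.7 and 88.6 in old libraries. *Hoxb8*, which acts in the thoracic spinal cord and marks a myeloid lineage, had 107, 82.5, 73.8, 67.8 and 69.6 in young and 62.2, 111, 90.5, 77.2 and 79.0 in old libraries. The old values lay within the young range for *Hoxb5* and extended beyond it on both sides for *Hoxb8*, and the log2 fold change was 0.08 for both (SE 0.12 and 0.16).

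*Hoxb2*, which patterns the hindbrain and facial motor neurons, had 92.6, 122, 96.9, 95.8 and 118 per kb in young 1 to young 5 and 94.0, 111, 122, 89.0 and 109 in old 1 to old 5. Its means were 105 ± 13.7 and 105 ± 13.4 per kb (log2 fold change 0.01, 95% interval -0.22 to 0.24). *Hoxc6*, the most abundant *Hoxc* gene and a marker of the thoracic region, had 89.6, 84.4, 89.8, 100.7 and 88.9 per kb in young and 121, 80.1, 60.0, 114 and 118 in old libraries. The young mice lay close together, while old 2 and old 3 fell below all young mice and the other old mice above them. The log2 fold change of *Hoxc6* was 0.13 (SE 0.17, 95% interval -0.24 to 0.49).

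No Hox gene was called as changed with age. With the threshold for the adjusted p at 0.05, 0 of the 27 tested Hox genes were called by edgeR, against 11.5% of all 14614 tested genes (6.48% higher and 4.99% lower in old aortae). DESeq2 and limma-voom also called 0. Without adjustment, 4 of 27 Hox genes had p below 0.05 by edgeR (14.8%, against 26.7% of all tested genes), 5 by limma-voom, and 4 of 34 by DESeq2, which keeps every gene with a count. In none of the 27 did the normalized counts of the young and old groups lie apart without overlap, which was the case for 9.92% of all tested genes (5.37% higher and 4.55% lower in old aortae).

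The fold changes of Hox genes were small, and most intervals were narrow enough to bound them. The log2 fold change was below 0.5 in size for 26 of 27 genes, the exception being *Hoxc9* (0.58). The 95% interval excluded both a doubling and a halving for 25 of 27 genes, the exceptions being *Hoxa11* (-0.76 to 1.34) and *Hoxc9* (0.04 to 1.13), and it excluded a 1.5-fold change in either direction for 13. The median SE was 0.18 for Hox genes and 0.10 for all tested genes. Values were positive for 20 of 27 Hox genes and for 50.8% of all tested genes, with medians of 0.10 and 0.00.

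Arranged along the cluster, the values were positive for 7 of 9 tested genes of paralog groups 1 to 4 (median log2 fold change 0.26), for 9 of 11 of groups 5 to 8 (median 0.08) and for 4 of 7 of groups 9 to 11 (median 0.01). By cluster they were positive for 7 of 10 *Hoxa* genes (median 0.22), 7 of 8 *Hoxb* genes (median 0.08), 6 of 6 *Hoxc* genes (median 0.24) and 0 of 3 *Hoxd* genes (median -0.16). The differences between these groups of genes were not tested, and single directions were not stable for the genes near 0. *Hoxa6*, *Hoxa7*, *Hoxa10*, *Hoxb2*, *Hoxb6*, *Hoxb8*, *Hoxc5*, *Hoxc10*, *Hoxd4* and *Hoxd9* each changed sign under at least 1 alternative, most often when a single library was omitted.

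**Figure D2:**
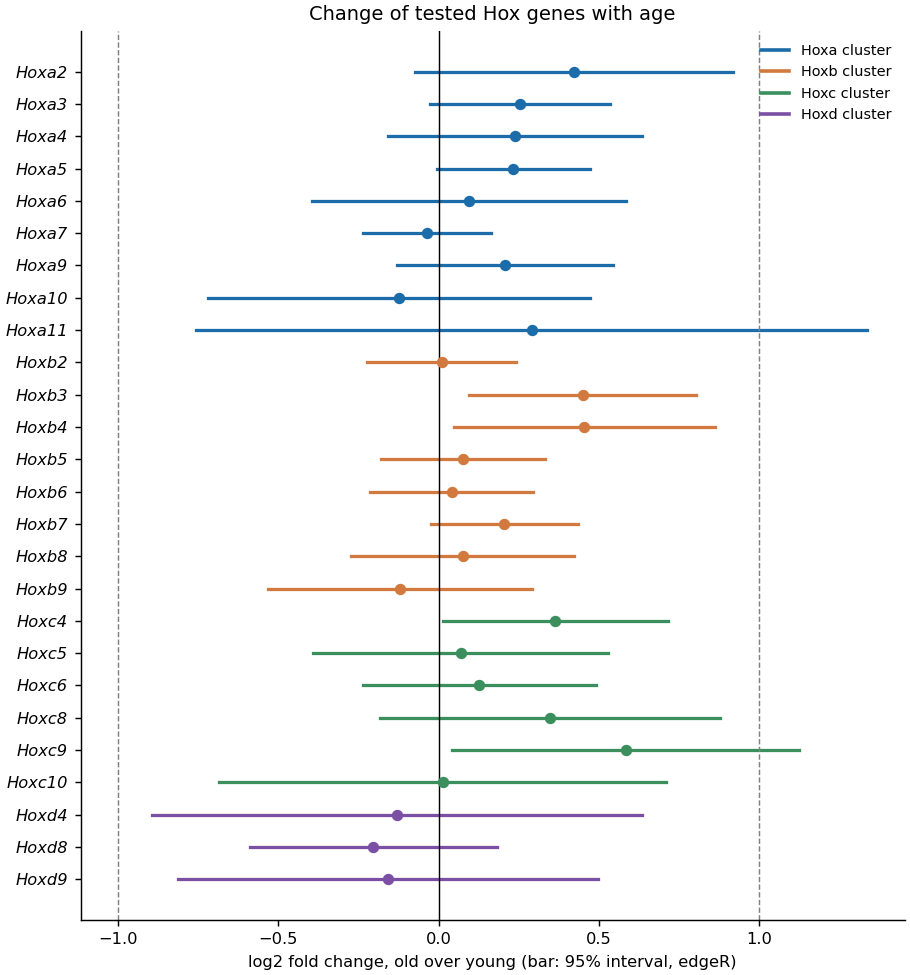
Log2 fold change of old over young aortae for tested Hox genes by edgeR, with 95% intervals as bars, colored by cluster and ordered by paralog number. Dashed lines mark a halving and a doubling. The intervals of Hoxb3, Hoxb4, Hoxc4 and Hoxc9 lie above 0 before adjustment for multiple tests, and those of Hoxa11 and Hoxc9 cross the doubling line.

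The 4 genes with the smallest p were *Hoxb3*, *Hoxb4*, *Hoxc4* and *Hoxc9*, each with a higher mean in old aortae. *Hoxb3*, which acts with its paralog *Hoxa3* in the pharyngeal arches, had 106, 111, 75.5, 72.2 and 90.4 normalized counts per kb in young 1 to young 5 and 132, 148, 144, 104 and 89.2 in old 1 to old 5. Old 1, old 2 and old 3 were above all young mice, and old 4 and old 5 were not. The log2 fold change was 0.45 (SE 0.16) with an edgeR adjusted p of 0.0993, the smallest among Hox genes. Of the exonic bases of *Hoxb3*, 52.9% are overlapped by the antisense gene *Hoxb3os*, whose own log2 fold change was -0.17 (adjusted p = 0.480).

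*Hoxb4*, known for expanding blood stem cells, had 94.0, 123, 76.9, 104 and 92.2 per kb in young 1 to young 5 and 118, 205, 110.4, 103 and 133 in old 1 to old 5. Old 2 was far above the others, and young 2 and young 4 lay within the range of the old mice. Its log2 fold change was 0.45 (SE 0.19, edgeR adjusted p = 0.142). *Hoxc4* had 40.2, 25.9, 30.7, 25.6 and 22.3 per kb in young and 39.3, 36.1, 32.7, 38.3 and 39 in old libraries, with young 1 above all old mice and the other young mice below them (log2 fold change 0.36, SE 0.16, edgeR adjusted p = 0.169). *Hoxc9*, a determinant of thoracic motor neurons, had 10.9, 15.7, 25.8, 22.7 and 18.1 in young and 29.6, 23.3, 17.3, 34.5 and 34.8 in old libraries. Old 1, old 4 and old 5 were above all young mice, and young 1, which was highest for *Hoxc4*, was lowest for *Hoxc9* (log2 fold change 0.58, SE 0.25, edgeR adjusted p = 0.154).

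Some of these genes passed the threshold under an alternative. Without young 1, *Hoxa5* (adjusted p = 0.0456) and *Hoxc4* (adjusted p = 0.0290) were called as higher in old aortae by edgeR, and 16.1% of all tested genes were called in that fit. Without old 5, *Hoxb3* was called (edgeR adjusted p = 0.0391), with 8.59% of all tested genes. With young 2 and old 2 omitted together, a choice made after the data were seen, 0 of 27 Hox genes were called by edgeR and 4 had an unadjusted p below 0.05. Over 20 alternatives the adjusted p ranged from 0.0391 to 0.215 for *Hoxb3*, from 0.0478 (with the replicate number as a covariate, all libraries kept) to 0.286 for *Hoxb4*, from 0.0290 to 0.342 for *Hoxc4*, from 0.0792 to 0.300 for *Hoxc9* and from 0.0456 to 0.402 for *Hoxa5*.

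The division of Hox expression along the axis was described by the share of each range of paralog numbers in the summed level per kb of all 39 genes. Paralog groups 5 to 8 held 59.2 ± 1.34% of it in the young group and 57.4 ± 1.15% in the old group (SD, n = 5). Groups 1 to 4 held 27.4 ± 3.67% and 30.2 ± 3.88%, and groups 9 to 13 held 13.3 ± 3.31% and 12.5 ± 3.24%. For each range the difference in mean between ages was smaller than the range covered by mice of one age, and the groups overlapped. Means of 5 vary less than single mice, so this does not weigh age against mouse. For groups 5 to 8 the difference exceeded the SD of either age, and it was not tested. By cluster, *Hoxa* genes held 41.3 ± 2.02% and 40.8 ± 1.56%, *Hoxb* genes 41.2 ± 3.54% and 41.9 ± 4.38%, *Hoxc* genes 13.4 ± 1.79% and 14 ± 3.46%, and *Hoxd* genes 4.12 ± 0.80% and 3.22 ± 0.77%. Among the clusters, the difference in mean exceeded the SD of either age for *Hoxd* alone.

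The shares also differed between mice of the same age. Groups 9 to 13 held 8.05% of the summed level in young 2, 8.75% in old 2 and 9.14% in old 3, against 13.4 to 17.1% in the other 7 libraries. The same 3 libraries had the highest shares of groups 1 to 4 (33.3%, 34.1% and 34.1%, against 23.5 to 29.0%), although shares of one total are not independent of each other. The summed level itself was 2057 ± 237 per kb in young and 2252 ± 56.1 in old aortae, and the largest sum was that of young 1 (2450.1, against 1858 to 2084 in the other young mice and 2175 to 2310.1 in the old). Young 1 was also the library with the highest adipocyte marker sum, and whether this bears on its Hox level was not tested.

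**Figure D3:**
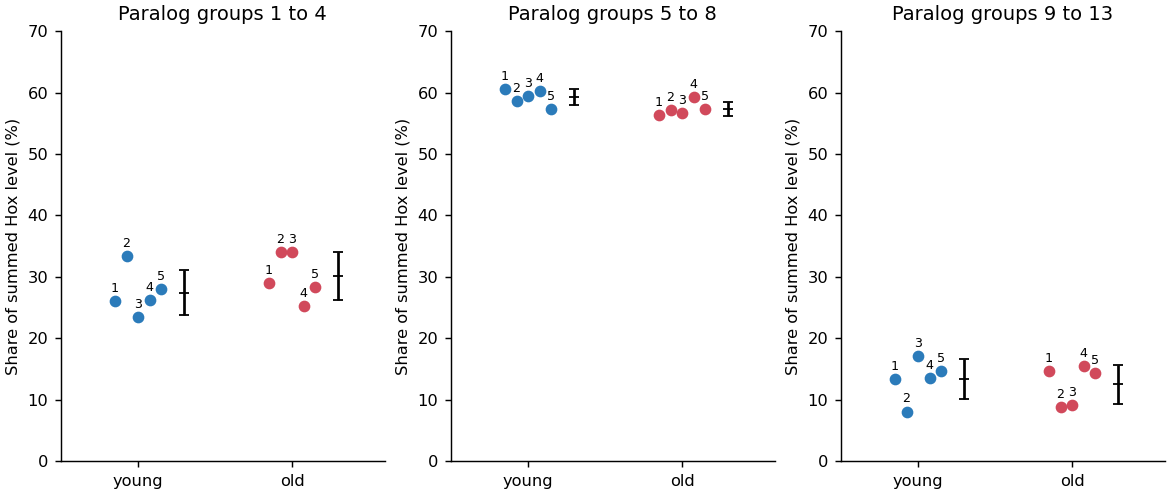
Share of the summed Hox level per kb (percent, axis from 0) held by paralog groups 1 to 4, 5 to 8 and 9 to 13 in each library. Points are mice numbered by replicate, and the bars beside them are mean and SD of 5. Young 2, old 2 and old 3 had the lowest shares of groups 9 to 13 and the highest shares of groups 1 to 4.

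By group medians, the Hox genes toward the tail end of the clusters varied most between mice of the same age. The SD of log2 normalized counts within an age group had a median of 0.30 for paralog groups 1 to 4, 0.29 for groups 5 to 8, 0.40 for group 9 and 0.60 for groups 10 to 11, against 0.16 for all tested genes. Single genes did not all follow this order, as *Hoxd4* had an SD of 0.55 (at a mean of 11.8 normalized counts) and *Hoxa9* 0.27. Because the spread depends on the count, each gene was set beside the tested genes of similar level, in 20 bins. All 7 tested genes of groups 9 to 11 lay above the median of their bin and 4 lay above its 90th percentile (*Hoxa10*, *Hoxa11*, *Hoxc10* and *Hoxd9*). For groups 1 to 4 these counts were 7 and 2 of 9 (*Hoxb3* and *Hoxb4*), and for groups 5 to 8 they were 9 and 2 of 11 (*Hoxc6* and *Hoxc8*). By construction 10% of all tested genes lie above that percentile, and the differences between the groups of Hox genes were not tested.

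**Figure D4:**
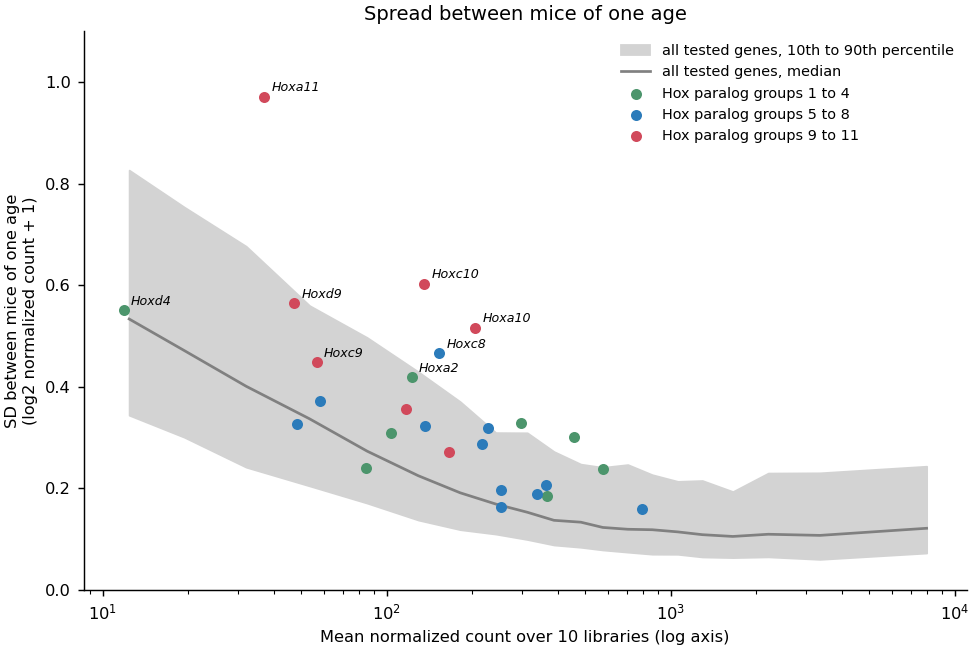
Spread between mice of one age (SD of log2 normalized count plus 1, pooled over both ages) against the mean normalized count on a log axis. The grey band and line are the 10th to 90th percentile and the median of all tested genes in 20 bins, and points are tested Hox genes by paralog range. Hoxa11 lies far above the band, and Hoxa10, Hoxc10, Hoxc8, Hoxb3 and Hoxb4 lie above it. Hoxd9, which is above the 90th percentile of its own bin, lies near the edge of the band drawn between bins.

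*Hoxa11* and *Hoxa10* are described here because of their spread, which was seen first. *Hoxa11*, which patterns the forearm, kidney and uterus, had 38.8, 9.06, 51.8, 19.3 and 48.2 normalized counts in young 1 to young 5 and 64.0, 13.1, 24.2, 56.9 and 44.7 in old 1 to old 5. Young 2 and old 2 were lowest, and the highest library exceeded the lowest 5.72 times among young and 4.89 times among old mice. Its SD within groups was 0.97 on the log2 scale, against 0.24 from counting error alone and 0.40 for the median of genes of similar level. The log2 fold change with age was 0.29 (SE 0.48). Of its exonic bases, 35.0% are overlapped by *Hoxa11os*.

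*Hoxa10*, a gene of the lumbar region and the uterus, had 269, 110, 295, 182 and 213 normalized counts in young 1 to young 5 and 249.8, 116, 158, 242 and 209 in old 1 to old 5. Young 2, old 2 and old 3 were again the lowest, and no other gene overlaps its exons. *Hoxc10*, which acts in lumbar motor neurons and marks fat and skin of the hind part of the body, had 75.5, 39.5, 103, 69.8 and 64.9 normalized counts per kb in young and 86.4, 35.4, 42.0, 90.4 and 100.3 in old libraries. The same 3 libraries were lowest here too. The SDs within groups were 0.52 for *Hoxa10* and 0.60 for *Hoxc10*, with 0.10 and 0.12 from counting error, and the log2 fold changes were -0.12 (SE 0.27) and 0.01 (SE 0.32). A relation between the number of CpG in the promoter window and the spread was not tested. The windows of *Hoxa10* and *Hoxa11* printed above hold 20 and 13 CpG and that of *Hoxa5* (SD 0.19) holds 28. A second window of *Hoxa10*, not printed, holds 7. The window of *Hoxa7*, which had the smallest SD of the tested Hox genes (0.16), also holds 7. The 30 bases that follow this *Hoxa7* window were not found in a GENCODE transcript of the gene.

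Over the 7 tested genes of paralog groups 9 to 11, young 2 was among the 3 lowest libraries for all 7, old 2 for 4 and old 3 for 4. This order was not confined to these groups. Young 2, old 2 and old 3 were also the 3 lowest libraries for *Hoxc6* and *Hoxd8*, and old 2 and young 2 were the lowest for *Hoxc8*. Other genes did not show it. For *Hoxa5* old 2 was the highest library, and in *Hoxa7* young 2 was lowest while old 2 and old 3 lay near the middle of the old mice. Young 2 was the library with the highest skeletal muscle marker sum and, among young libraries, the highest cardiac muscle marker sum. Old 2 had the highest mitochondrial share, and old 3 had the highest leukocyte and cardiac muscle marker sums. The part of these sums and shares in the lower counts of the tail-end Hox genes was not tested. The 5 alternatives of scaling and filtering and the omission of any library left the number of Hox genes called at 0 to 2.

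**Figure D5:**
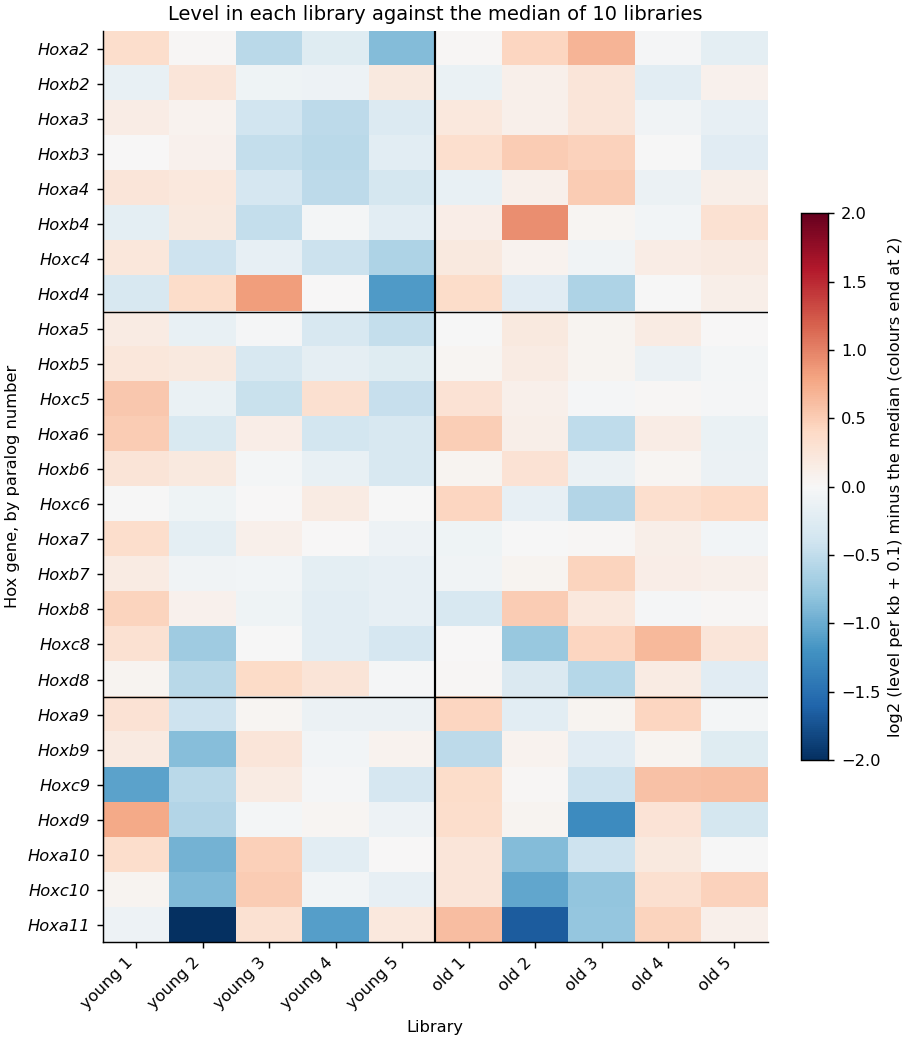
Level of the tested Hox genes in each library as log2 of the level per kb plus 0.1, minus the median over the 10 libraries (color, cut at 2 in either direction), with genes in order of paralog number and young and old libraries on either side of the vertical line. The lower block of genes (paralog groups 9 to 11) is blue throughout in young 2, and *Hoxa10*, *Hoxc10* and *Hoxa11* are blue in old 2 and old 3 as well.

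Genes at the ends of the clusters, and *Hoxd3*, gave few or no counts. *Hoxb1*, *Hoxb13*, *Hoxd1*, *Hoxd12* and *Hoxd13* had 0 counts of 217357343 over the 10 libraries, which allows a share of up to 1.38e-06% of the counts and covers counting error only. *Hoxa13*, the tail-end gene of its cluster, had 13 raw counts over the 5 young and 24 over the 5 old libraries. *Hoxc11* had 22 and 41, *Hoxc12* 0 and 1, *Hoxc13* 3 and 6, *Hoxd3* 13 and 5, *Hoxd10* 28 and 16, and *Hoxd11* 5 and 0. *Hoxd10* had 17 of its young counts in young 1. Exact two-sided permutation tests on normalized counts over 5 against 5 mice gave unadjusted p-values of 0.0476 for *Hoxd11*, which had at most 2 counts in any library, 0.0873 for *Hoxc11* and 0.167 to 1.00 for the other 5 genes.

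Counts of some Hox genes cannot be assigned with certainty, because other genes overlap their exons and the strand setting of the counting was not stated. For 10 of the 39 genes, of which 8 were tested, at least 10% of exonic bases are shared with another gene. *Hoxd3* (62.8%) and *Hoxd4* (52.3%) overlap each other on the same strand, *Hoxb2* (27.3%) is overlapped by *Hoxb3os*, *Hoxa3* (27.1%) by several antisense transcripts and *Hoxa7* (20.4%) by *Hoxaas3*. *Hoxa2*, *Hoxa4* and *Hoxd11* have smaller overlaps.

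Noncoding transcripts of the Hox clusters were also compared. Of 10 named ones, *Hottip* had no counts, 6 were tested and 0 were called by edgeR, against 11.5% of all tested genes. At an unadjusted p below 0.05 by edgeR there was 1, which DESeq2 called (with 8.3% of all genes with a count). The exception was *Hotairm1*, transcribed at the head end of the *Hoxa* cluster and known for a role in myeloid cells, with a mean of 84.5 ± 10.6 normalized counts in the young group and 61.8 ± 6.92 in the old group. Its groups overlapped slightly (71.6 to 94.6 in young and 53.0 to 72.0 in old), with a log2 fold change of -0.44 (SE 0.14). The adjusted p was 0.0642 by edgeR and 0.0412 by DESeq2, and it was 0.0373 by edgeR without young 1. Of all 46 other genes that lie inside the 4 clusters, 21 had no counts, 12 were tested and 0 were called by edgeR. *Hotairm1* was again the 1 at an unadjusted p below 0.05 and the 1 called by DESeq2. With 6 and 12 genes tested, few calls would arise at the share of all tested genes. *Hoxb5os*, the most abundant named transcript per kb, had 55.9 ± 14.6 and 45.6 ± 9.83 normalized counts (log2 fold change -0.29, SE 0.22), and *Gm27477*, the highest per kb among the 46, had 29.5 ± 6.96 and 25.5 ± 5.94.

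The genes beside the clusters were compared as well. The nearest tested protein-coding genes on either side were *Skap2* and *Hibadh* for *Hoxa*, *Atp5g1* and *Snx11* for *Hoxb*, *Calcoco1* and *Smug1* for *Hoxc*, and *Lnpk* and *Mtx2* for *Hoxd*. None of these 8 was called by edgeR, against 11.5% of all tested genes. With so few genes, 0 calls lie near that share. Their log2 fold changes ran from -0.18 (*Lnpk*) to 0.15 (*Snx11*) and their adjusted p-values from 0.152 (*Skap2*) to 0.774 (*Smug1*).

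TALE homeodomain proteins (Pbx, Meis and Pknox) bind DNA together with Hox proteins. Of 9 genes, 8 were tested and 1 was called (12.5%, against 11.5% of all tested genes). This was *Meis3*, which rose from 463 ± 49.5 to 576 ± 36.6 normalized counts (log2 fold change 0.32, SE 0.08, edgeR adjusted p = 0.0214). Its young libraries had 382 to 512 and its old libraries 537 to 636, without overlap. The call of *Meis3* was lost by edgeR without young 4 (adjusted p = 0.0519) or old 2 (adjusted p = 0.0517), and with young 2 and old 2 omitted together (adjusted p = 0.0632). The median log2 fold change of the 8 was 0.06, and 2 of them were called without young 1 (16.1% of all tested genes) or without old 1 (10.2%).

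Polycomb proteins keep Hox genes silent outside their proper region. Of 20 genes, all tested, 4 rose and 1 fell with age (25.0%, against 11.5% of all tested genes, 6.48% higher and 4.99% lower). *Bmi1* and *Cbx7* belong to the repressive complex that acts on histone H2A. *Bmi1* rose from 729 ± 68.5 to 929.8 ± 56.0 normalized counts (log2 fold change 0.36, SE 0.07, edgeR adjusted p = 0.0065). *Cbx7* rose from 1459 ± 105 to 1802 ± 142 normalized counts (0.31, SE 0.07, edgeR adjusted p = 0.0101). *Cbx2* rose from 61.3 ± 7.51 to 89.2 ± 10.2 normalized counts, and *Ezh2*, the histone H3K27 methyltransferase that is most abundant in dividing cells, fell from 102 ± 8.60 to 62.7 ± 14.5 (log2 fold change -0.68, SE 0.16, edgeR adjusted p = 0.0163).

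For each of these 4 genes, which were picked as called, the young and old groups did not overlap. Of the 20 genes, the groups also lay apart for *Phf19* (higher in old) and *Eed* (lower in old, edgeR adjusted p = 0.0819), and overlapped for the others. Over all tested genes the groups lay apart for 9.92%. *Bmi1* and *Cbx7* stayed called in all of 20 alternatives and *Ezh2* in all but 1, with young 2 and old 2 omitted together. The call of *Cbx2* was lost in 6 of 20 alternatives. These were the omission of young 2, young 4 or old 5 (edgeR adjusted p up to 0.0694), no low-count filter (0.0523), the replicate number as a covariate (0.0560), and young 2 and old 2 omitted together (0.0710). The fifth called gene, *Phf19*, which tethers the H3K27 methyltransferase to chromatin, had an edgeR adjusted p of 0.0453. It lost its call in 12 of 20 alternatives, among them 9 of 10 omissions of a single library (adjusted p up to 0.115), all but that of old 1. *Cbx6*, the most abundant per kb, had 5011 ± 239 and 5203 ± 400.3 normalized counts. The median log2 fold change of the 20 was 0.02. None of the 11 genes of the Trithorax group and the H3K27 demethylases, which oppose Polycomb, was called by edgeR or DESeq2. Shares called were 11.5% of all tested genes by edgeR and 8.3% of all genes with a count by DESeq2, which are unlike sets of genes. By edgeR, 1 of the 11 had an unadjusted p below 0.05. Without young 1, 1 of these 11 was called by edgeR (*Wdr5*, named after this was seen), against 16.1% of all tested genes. *Dpy30*, the most abundant per kb of the 11, had 528 ± 38.9 and 482 ± 46.3 normalized counts.

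Of 21 regulators of the body axis and of retinoic acid, the vitamin A derivative that sets early Hox expression, 13 were tested and 1 was called (7.69%, against 11.5% of all tested genes). *Gdf11*, a ligand that sets the trunk to tail transition in the embryo, rose from 124 ± 18.8 to 183 ± 23.2 normalized counts (log2 fold change 0.57, SE 0.13, edgeR adjusted p = 0.0134), with overlapping groups. Its call was lost with young 2 and old 2 omitted together (edgeR adjusted p = 0.0544). The caudal genes *Cdx2* and *Cdx4*, embryonic activators of Hox genes, had no counts. DESeq2 called 3 genes of this list, and 8.3% of all genes with a count. By edgeR, 3 were called without young 1 (where 16.1% of all tested genes were called), and 2 without young 2, young 3 or old 2 (8.31%, 10.2% and 10.5% of all tested genes).

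Transcription factors outside the Hox family also mark regions of the mesoderm. Of 36 such genes 24 were tested, and 3 rose and 0 fell (12.5% called, near the 11.5% of all tested genes). *Meox1*, a homeobox gene of the somites, rose from 81.4 ± 19.8 to 149 ± 35.8 normalized counts (log2 fold change 0.88, SE 0.20, edgeR adjusted p = 0.0121), and *Tbx2*, a T-box repressor of the cardiac outflow region, from 317 ± 49.6 to 480.4 ± 79.0 (0.61, SE 0.13, edgeR adjusted p = 0.0104). *Tbx15*, a T-box gene of limb and trunk mesenchyme, rose from 35.7 ± 5.51 to 57.3 ± 11.2 (0.69, SE 0.19, edgeR adjusted p = 0.0317). Its call was lost without young 4, young 5, old 3, old 4 or old 5 (adjusted p up to 0.0833). It was also lost without the low-count filter (0.0537) and with the replicate number as a covariate (0.0881). The young and old groups did not overlap for *Meox1* and *Tbx15* but overlapped for *Tbx2*. *Foxc2*, the most abundant per kb, had 1050 ± 86.0 and 1140 ± 111 normalized counts (log2 fold change 0.13, SE 0.08), and *Hand1* and *Nkx2-5*, genes of the heart, had no counts. The median log2 fold change over the 24 was 0.19, against 0.00 over all tested genes, and 5 were called by edgeR without young 1, where 16.1% of all tested genes were called.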

How the data were processed

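For each of 10 male C57BL/6 mice, 5 of 14.5 weeks and 5 of 92.5 weeks per the labels, an RNA-seq library of the aorta was prepared with a stranded mRNA kit. Per the study's methods and processing notes, the authors filtered reads with fastp 0.20.0, aligned them to GRCm38 with the GENCODE M22 annotation by STAR 2.7.0f, and counted reads per gene with featureCounts of Subread 1.6.4. The deposited table holds these counts, not normalized, for 55453 gene symbols. The strand setting and the treatment of reads with several alignments were not stated.

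Exonic lengths and positions came from GENCODE M21 of the same build, in which 54402 symbols and all 39 Hox genes matched 1 gene. Counts were tested with the quasi-likelihood F test of edgeR 4.0.16 (TMM scaling, filterByExpr defaults, robust fit, no covariates, R 4.3.3) over 14614 of 28011 genes with a count. The Benjamini-Hochberg adjustment ran over all tested genes, with a threshold of 0.05. Normalized counts used the size factors of DESeq2 1.42.0, and levels per kb used the union of exons. Alternatives were DESeq2, limma-voom (limma 3.58.1), other scalings and filters, GC content and length offsets, the replicate number as a covariate and the omission of each library. Alternatives for the noncoding transcripts, and the joint omission of young 2 and old 2, were added after the data were seen. Standard errors include the spread between mice.

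The members, lists and naming rule were chosen with earlier results of these data known. Hox genes were named, with values per library for the 12 highest per kb and any called gene, and the 4 called members with the smallest p and the most abundant member of each other list. A few genes that the rule names are not reported here, and the counts and medians include them. *Hoxa10*, *Hoxa11*, *Hoxc4*, *Hoxc9*, *Hoxd8* and *Hoxd9*, *Hotairm1* and *Phf19* were described in detail after their values were seen. Same-numbered young and old libraries did not deviate together (correlations of -0.30, -0.07, 0.10, -0.05 and 0.13), so that the numbers were not taken as pairs.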

Additional observations from a re-analysis of the deposited data

Results flagged for a closer look

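In 104 groups of 5 libraries (each Hox gene with a count, each share, each marker sum and each share of counts, by age), 6 values stood far from the other 4, and chance sets apart about 1 in 20 groups. *Hoxd10* had 17.4 normalized counts in young 1, against 1.01 to 4.99 in the other young libraries. *Hoxc12* had 0.96 normalized counts in old 4, from a single read, and none in the other old libraries. The skeletal muscle marker sum was 1177 normalized counts in young 2, against 191 to 261 in the other young libraries. Leukocyte markers summed to 13923 in old 3, against 6402 to 8048 in the other old libraries. The mitochondrial share of counts was 11% in old 2, against 5.19 to 6.51%. Adrenal and kidney markers summed to 39.5 in old 4, against 27 to 30.5.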

How the results depend on the processing

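The count of 0 Hox genes called held under DESeq2, limma-voom, the other scalings and filters and the GC content and length offsets, and ranged from 0 to 2 when single libraries were omitted. Same-numbered libraries were not taken as pairs, and with the replicate number as a block 1 Hox gene was called (*Hoxb4*, adjusted p = 0.0478, edgeR), 1261 of all genes in place of 1676, and 3 Polycomb genes. Called genes ranged from 0 to 2 for TALE cofactors, 3 to 6 for Polycomb, 0 to 1 for Trithorax, 1 to 3 for axial regulators, 2 to 5 for regional factors and 0 to 1 for noncoding transcripts over these omissions, in which 7.67 to 16.1% of all tested genes were called. Without the low-count filter 3 Polycomb and 2 axial genes were called (5.72% of all genes with a count), and by DESeq2 3 axial genes and 1 noncoding transcript (8.3%). Without division by length, paralog groups 1 to 4 held 34.8% in young and 38.0% in old, groups 5 to 8 51.0% and 48.7%, and *Hoxa* genes 43.5% and 42.7%. With the longest transcript as length, groups 5 to 8 held 57.8% and 55.8%, *Hoxa* genes 45.3% and 44.6%, and *Hoxb* genes 37.2% in young. Log2 fold changes near 0 changed sign when single libraries were omitted, with ranges of -0.040 to 0.27 for *Hoxa6*, -0.095 to 0.052 for *Hoxa7*, -0.29 to 0.023 for *Hoxa10*, -0.052 to 0.065 for *Hoxb2*, -0.034 to 0.11 for *Hoxb6*, -0.048 to 0.20 for *Hoxb8*, -0.034 to 0.23 for *Hoxc5*, -0.14 to 0.19 for *Hoxc10*, -0.33 to 0.14 for *Hoxd4* and -0.29 to 0.073 for *Hoxd9*. They also did so for *Hoxb2* with GC content and length offsets (-0.021), for *Hoxb8* without young 2 and old 2 together (-0.030), and for *Hoxc10* by limma-voom (-0.034) and with the replicate block (-0.025). Apart from the omissions, the cause of these changes was not tested. At this depth the 7 Hox genes with few counts were left out of the fit, and changes in them were not assessed by it.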
